A study of Mus musculus with 16 samples.

Results

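*Fgf17*, *Sh2d5*, *Sh2d4b*, *Pde1b* and *Tmem39b* each lie a few kilobases downstream of another gene on the same strand, in this order *Npm2*, *Hp1bp3*, *Tspan14*, *Nckap1l* and *Khdrbs1*. The 5 downstream genes were chosen by their measured changes after deletion of *Tox4* in these samples, and the 5 upstream genes were added by position. They make 10 of the 24984 genes counted in DP cells and 10 of the 24974 counted in CD8 cells. Differences between cKO and control samples are therefore given as a description, with no p-value.

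Strand-specific RNA-seq of polyA RNA was done on mouse thymocytes of 2 stages. DP cells, which carry both CD4 and CD8, came as 3 control samples of genotype Tox4;F/F and 3 cKO samples of genotype Tox4;F/F;Lck+. CD8 cells, sorted as TCRβ+CD8+, came as 5 control samples of genotype Tox4;F/F and 5 cKO samples of genotype Tox4;F/F;Lck-cre. Controls carry the floxed allele without Cre, and in cKO mice a Cre under the proximal *Lck* promoter removes *Tox4* exons 4 to 6 from the DN3 stage on. The floxed line was made in eggs of C57BL/6 background, and the mice were littermates matched by sex and aged 6 to 8 weeks. Fragments on genes numbered 16524506 to 18484568 per DP control, 14583336 to 25981683 per DP cKO, 9420085 to 13530783 per CD8 control and 8514135 to 11828492 per CD8 cKO sample. The fragments carry no molecular identifiers, and counts per gene do not show where in a gene the fragments lie.

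Tox4 is an HMG-box protein that joins PNUTS, WDR82 and a PP1 phosphatase in a complex that acts on RNA polymerase II during transcription. PNUTS and WDR82 are known for their part in ending transcription downstream of genes. In the thymus, DP cells rearrange the T cell receptor α locus and, after selection, mature into CD4 or CD8 single positive cells.

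A pair of CD8 libraries stood apart from the others. *Tox4* itself was at 197, 188, 200, 201 and 178 normalized CPM (fragments of a gene scaled to library size with TMM factors) in CD8 controls and at 169, 185, 176, 234 and 164 CPM in CD8 cKO samples. The library labelled cKO replicate 4 was thus above every CD8 control, while the count includes exons outside the deleted ones. For each of the 10 genes the CD8 log2 fold change is given with all 5 cKO samples and also without this one, and other CD8 values are with all 5 unless stated. The library of CD8 control replicate 1 held fragments of 17741 genes, against 13708 to 14194 in the other CD8 controls. In DP cells *Tox4* was at 154, 172 and 180 CPM in controls and 133, 141 and 131 CPM in cKO samples, with every cKO sample below every control.

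The labelled cell types were checked on marker genes by comparing control CD8 with control DP samples over all genes. A gene counted as called when edgeR gave an adjusted p under 0.05, it changed at least 1.5-fold and its mean level per length (TPM) reached 1. Of 11364 genes above that TPM, 22.8% were called higher and 23.1% lower in CD8 cells. Of 7 markers of DP cells, 6 were called lower in CD8 cells, among them the recombinase gene *Rag1* with a log2 fold change of -7.23 and *Cd4* with -5.86. Of 8 markers of CD8 single positive cells, 6 were called higher, among them *S1pr1*, a receptor for exit from the thymus, with 7.76 and *Runx3*, a transcription factor of the CD8 lineage, with 4.09. *Cd8b1*, which is in both lists, was called lower in CD8 cells with -0.80. The 2 cell types were deposited in separate count tables, and a difference in how the 2 sets were made cannot be told apart from cell type in this comparison.

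In the annotation deposited with the counts (mm10), *Fgf17* lies at chr14:70636203-70642268 on the minus strand, 5034 bases after the end of *Npm2*. *Sh2d5* lies at chr4:138250411-138260968 on the plus strand, 5729 bases after *Hp1bp3*. *Sh2d4b* lies at chr14:40811526-40901673 on the minus strand, 4754 bases after *Tspan14*. All 3 gaps are under 6 kb, but in GENCODE, where *Sh2d4b* starts further downstream, its gap is 13179 bases. *Pde1b* lies at chr15:103503034-103530056 on the plus strand, 4234 bases after *Nckap1l*. *Tmem39b* lies at chr4:129676352-129696845 on the minus strand, 6324 bases after *Khdrbs1*, or 16981 bases in GENCODE. In GENCODE the gaps of *Fgf17*, *Sh2d5* and *Pde1b* are 5034, 5720 and 4224 bases.

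**Figure D1:**
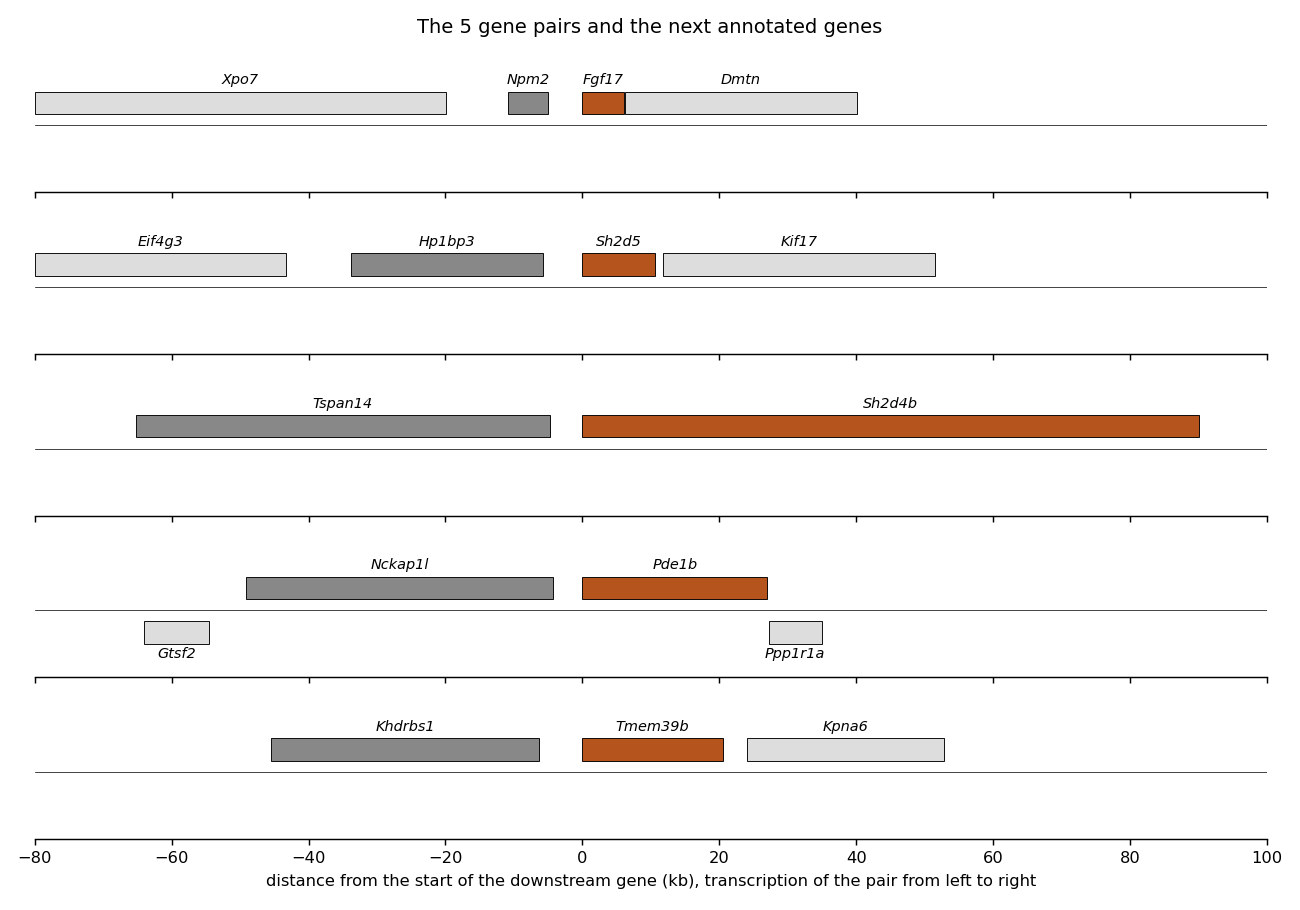
Map of the 5 pairs, with the distance from the start of the downstream gene in kb on the x axis and transcription of the pair from left to right. Orange boxes are the downstream genes, dark grey boxes their upstream genes and light grey boxes other annotated genes, above the line on the strand of the pair and below it on the opposite strand. *Xpo7* and *Eif4g3* run on beyond the left edge, and *Prxl2a*, *Ptp4a2*, 1700109I08Rik and *Mir7016* are not drawn. The gaps run from 4234 to 6324 bases.

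Of the 10 genes, 5 have an entry in the RefSeq promoter table (build GRCm38.p6, 300 bases around a start), and those of 3 downstream genes are shown because these genes were higher in cKO samples. *Fgf17*, *Npm2*, *Sh2d5*, *Nckap1l* and *Khdrbs1* have no entry. The windows lie at chr15:103502784-103503083 on the plus strand for *Pde1b* (the first of its 3 entries), chr4:129696796-129697095 on the minus strand for *Tmem39b* and chr14:40893265-40893564 on the minus strand for *Sh2d4b*. The window of *Sh2d4b* lies at its GENCODE start and not at the start in the deposited annotation, which is used for the gap of 4754 bases. Capitals mark the GC box letters GGGCGG or, for the other strand, CCGCCC.
Pde1b: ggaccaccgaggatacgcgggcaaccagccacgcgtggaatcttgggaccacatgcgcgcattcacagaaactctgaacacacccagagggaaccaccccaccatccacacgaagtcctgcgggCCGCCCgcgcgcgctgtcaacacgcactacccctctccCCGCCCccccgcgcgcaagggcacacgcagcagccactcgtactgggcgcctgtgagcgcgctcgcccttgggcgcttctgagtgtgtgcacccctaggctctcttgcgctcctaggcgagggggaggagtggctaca
Tmem39b: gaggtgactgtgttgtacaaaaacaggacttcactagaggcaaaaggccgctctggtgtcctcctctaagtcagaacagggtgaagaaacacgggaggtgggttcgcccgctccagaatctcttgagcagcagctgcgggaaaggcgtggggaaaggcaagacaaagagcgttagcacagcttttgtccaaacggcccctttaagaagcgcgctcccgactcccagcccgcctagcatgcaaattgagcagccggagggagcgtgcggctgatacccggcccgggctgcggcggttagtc
Sh2d4b: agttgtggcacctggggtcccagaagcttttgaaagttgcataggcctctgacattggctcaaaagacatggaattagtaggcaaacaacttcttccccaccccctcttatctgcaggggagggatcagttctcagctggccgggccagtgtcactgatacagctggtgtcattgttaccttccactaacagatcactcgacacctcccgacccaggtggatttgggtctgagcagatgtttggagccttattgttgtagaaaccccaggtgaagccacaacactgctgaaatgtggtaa

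The window of *Pde1b* shown holds 2 GC boxes and 28 CpG dinucleotides, while its other 2 entries hold no GC box, 1 and 2 CpG and, in the former, 1 TATAAA, that of *Tmem39b* no GC box and 19 CpG, and that of *Sh2d4b* no GC box and 3 CpG. Over all 32851 promoters in the table the median was 7 CpG, and 35.7% held a GC box on either strand. CCAAT was found once on either strand of the *Sh2d4b* window and in 37.4% of all promoters, and TATAAA in none of the 3 windows shown and in 13.6% of all promoters. Among the upstream genes, *Hp1bp3* has a window with 41 CpG and 1 GC box, and the first of 2 entries of *Tspan14* holds 33 CpG and 6 GC boxes and the second 3 CpG and no GC box.

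In DP cells the 5 downstream genes and *Npm2* were higher in every cKO sample than in every control, as were 7.87% of all 11748 genes tested. *Hp1bp3*, *Tspan14*, *Nckap1l* and *Khdrbs1* overlapped between genotypes. In CD8 cells *Sh2d4b* was higher in every cKO sample than in every control, as were 0.855% of all genes tested. *Fgf17* and *Pde1b* were so in every cKO sample other than the library labelled replicate 4, as were 1.61% of all genes tested, and *Tmem39b* overlapped. The downstream genes were chosen by these changes, so nothing is read from these counts. In bulk samples, more cells that express a gene and more RNA per cell cannot be told apart.

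*Fgf17* encodes a secreted ligand of the fibroblast growth factor family, and its counts were low. In DP controls *Fgf17* was at 0.410, 0.436 and 0.590 CPM, and in DP cKO samples at 3.76, 3.90 and 2.95 CPM. All 3 cKO samples lay above the controls, with 57 to 80 fragments in a library against 7 to 10, and the log2 fold change was 2.86 (SE 0.35). In CD8 controls *Fgf17* was at 0.653, 0.918, 0.601, 0.275 and 0.292 CPM, and in CD8 cKO samples at 2.38, 2.04, 1.69, 0.695 and 1.26 CPM. Of the 5 cKO samples 4 lay above the highest control, and the library labelled replicate 4 lay within the control range with 6 fragments. *Fgf17* did not pass the filter on low counts in CD8 cells, where a fit without the filter gave a log2 fold change of 1.57 (SE 0.54). Without the library labelled replicate 4 it did pass, with 1.76 (SE 0.43). All 10 genes passed the filter in DP cells and 9 in CD8 cells.

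*Npm2*, the gene upstream of *Fgf17*, encodes a histone chaperone known from oocytes. In DP controls *Npm2* was at 1.23, 1.31 and 2.65 CPM, and in DP cKO samples at 5.17, 5.81 and 5.38 CPM. The highest control, replicate 3, was below the lowest cKO sample, and the log2 fold change was 1.65 (SE 0.34), or 2.09 without that control. In CD8 controls *Npm2* was at 2.72, 0.275, 0.601, 0.918 and 0.437 CPM, and in CD8 cKO samples at 3.83, 2.63, 4.05, 1.39 and 1.72 CPM. Control replicate 1, the library with the most genes detected, lay among the cKO samples, while the other 4 controls lay below all of them. The log2 fold change was 1.51 (SE 0.53) with all samples, 2.29 (SE 0.45) without control replicate 1 and 1.67 (SE 0.55) without cKO replicate 4. The part of the extra genes in this library in that difference was not tested.

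*Xpo7*, a nuclear export receptor gene, lies 9042 bases upstream of *Npm2* on the same strand, so that *Xpo7*, *Npm2* and *Fgf17* follow each other. In DP cells *Xpo7* was at 147, 153 and 148 CPM in controls and 162, 155 and 157 CPM in cKO samples. The groups did not overlap, at a log2 fold change of 0.08 (SE 0.10). In CD8 cells the log2 fold change of *Xpo7* was 0.07 (SE 0.08), and the groups overlapped. *Dmtn*, which codes for an actin-binding protein and begins 155 bases after *Fgf17* on the same strand, had 6 fragments in all 3 DP controls together and 22 in the 3 DP cKO samples, too few to pass the filter.

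*Pde1b* encodes a phosphodiesterase that is activated by calcium and calmodulin and breaks down cAMP and cGMP. In DP controls *Pde1b* was at 52.1, 46.1 and 47.9 CPM, and in DP cKO samples at 86.2, 85.6 and 79.3 CPM. The groups were well apart, and the log2 fold change was 0.78 (SE 0.11). In CD8 controls *Pde1b* was at 45.8, 49.2, 50.2, 56.4 and 44.2 CPM, and in CD8 cKO samples at 73.5, 83.2, 102, 50.7 and 76.7 CPM. The library labelled cKO replicate 4 lay among the controls and the other 4 lay above all of them. The log2 fold change was 0.65 (SE 0.15) with this library and 0.77 (SE 0.11) without it.

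*Nckap1l*, upstream of *Pde1b*, encodes the subunit of the WAVE actin-regulatory complex found in blood cells. In DP cells *Nckap1l* was at 454, 447 and 472 CPM in controls and 433, 427 and 450 CPM in cKO samples, and the groups overlapped at a log2 fold change of -0.07 (SE 0.10). In CD8 cells it ranged from 405 to 467 CPM in controls and from 429 to 520 CPM in cKO samples, with a log2 fold change of 0.09 (SE 0.08), or 0.05 (SE 0.08) without cKO replicate 4. *Ppp1r1a*, whose 3' end lies 223 bases after *Pde1b* on the opposite strand, had no fragment in any of the 16 libraries.

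*Sh2d5* encodes an adaptor with an SH2 domain, known mainly from the brain. In DP controls *Sh2d5* was at 2.40, 3.76 and 3.78 CPM, and in DP cKO samples at 11.1, 10.7 and 8.25 CPM. The groups did not overlap, and the log2 fold change was 1.59 (SE 0.25). In CD8 controls *Sh2d5* was at 5.33, 2.75, 2.30, 3.58 and 1.89 CPM, and in CD8 cKO samples at 4.09, 5.69, 9.0, 4.05 and 7.24 CPM. The groups overlapped through control replicate 1, which lay above cKO replicates 1 and 4. The log2 fold change was 0.93 (SE 0.31) with all samples, 1.19 (SE 0.30) without control replicate 1 and 1.04 (SE 0.32) without cKO replicate 4.

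*Hp1bp3*, upstream of *Sh2d5*, encodes a chromatin protein related to linker histones that binds HP1. In DP cells *Hp1bp3* was at 439, 397 and 404 CPM in controls and 441, 398 and 404 CPM in cKO samples. These values were nearly the same in both groups, with a log2 fold change of 0.00 (SE 0.10). In CD8 cells it ranged from 359 to 413 CPM in controls and from 349 to 393 CPM in cKO samples, with a log2 fold change of -0.03 (SE 0.08), or -0.01 (SE 0.07) without cKO replicate 4. *Kif17*, a kinesin motor gene that begins 1283 bases after *Sh2d5* on the same strand, had 1, 6 and 9 fragments in DP controls and 18, 23 and 15 in DP cKO samples. The cKO libraries were all higher also after scaling, at 0.847, 1.57 and 0.589 CPM against 0.0586, 0.327 and 0.531 CPM, and the log2 fold change was 1.65 (SE 0.68). In CD8 cells *Kif17* did not pass the filter, and its mean was 0.888 ± 0.779 CPM (SD, n = 5) in controls and 0.539 ± 0.331 CPM (SD, n = 5) in cKO samples.

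*Sh2d4b* encodes another adaptor with an SH2 domain. In DP controls *Sh2d4b* was at 0.938, 1.58 and 0.944 CPM, and in DP cKO samples at 4.42, 3.49 and 2.75 CPM. All cKO samples lay above all controls, and the log2 fold change was 1.61 (SE 0.36). In CD8 controls *Sh2d4b* was at 1.41, 3.58, 2.91, 4.68 and 2.99 CPM, and in CD8 cKO samples at 8.60, 9.86, 15.9, 10.1 and 8.39 CPM. The lowest cKO sample was above the highest control, the library labelled cKO replicate 4 lay with the other cKO samples, and cKO replicate 3 was far above the rest. The log2 fold change was 1.75 (SE 0.28), 1.56 (SE 0.27) without cKO replicate 3 and 1.76 (SE 0.30) without cKO replicate 4.

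*Tspan14*, upstream of *Sh2d4b*, encodes a tetraspanin that escorts the protease ADAM10 to the cell surface. In DP cells *Tspan14* was at 53.9, 49.8 and 38.3 CPM in controls and 52.9, 35.7 and 40.9 CPM in cKO samples, and the groups overlapped at a log2 fold change of -0.13 (SE 0.18). In CD8 cells it ranged from 86.5 to 132 CPM in controls and from 91.1 to 156 CPM in cKO samples, with a log2 fold change of 0.04 (SE 0.16), or -0.09 (SE 0.14) without cKO replicate 4. *Prxl2a*, the next gene upstream on the same strand, was at 2.76, 3.0 and 2.71 CPM in DP controls and 2.12, 1.98 and 2.0 CPM in DP cKO samples. There every cKO sample was below every control, at a log2 fold change of -0.47 (SE 0.28).

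*Tmem39b* encodes a protein with several membrane-spanning segments. In DP controls *Tmem39b* was at 23.6, 34.8 and 33.7 CPM, and in DP cKO samples at 42.2, 59.5 and 49.4 CPM. Control replicate 1 was low, no cKO sample reached down to the controls, and the log2 fold change was 0.71 (SE 0.19). In CD8 controls *Tmem39b* was at 30, 35.3, 32.6, 30.7 and 29.3 CPM, and in CD8 cKO samples at 32.6, 33.9, 30.5, 38 and 30.1 CPM. Only the library labelled cKO replicate 4 was above all controls, and the log2 fold change was 0.06 (SE 0.10), or 0.01 (SE 0.10) without it.

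*Khdrbs1*, upstream of *Tmem39b*, encodes the RNA-binding protein Sam68. In DP cells *Khdrbs1* was at 433, 414 and 390 CPM in controls and 408, 394 and 386 CPM in cKO samples, and the groups overlapped at a log2 fold change of -0.06 (SE 0.10). In CD8 cells it ranged from 225 to 317 CPM in controls and from 226 to 316 CPM in cKO samples, with a log2 fold change of -0.04 (SE 0.12), or -0.07 (SE 0.13) without cKO replicate 4. *Kpna6*, an importin gene 3585 bases after *Tmem39b* on the same strand, had log2 fold changes of -0.05 (SE 0.12) in DP and 0.08 (SE 0.09) in CD8 cells. *Ptp4a2* and *Eif4g3*, the next genes on the upstream side of *Khdrbs1* and *Hp1bp3*, lay between -0.09 and 0.01 in both cell types.

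**Figure D2:**
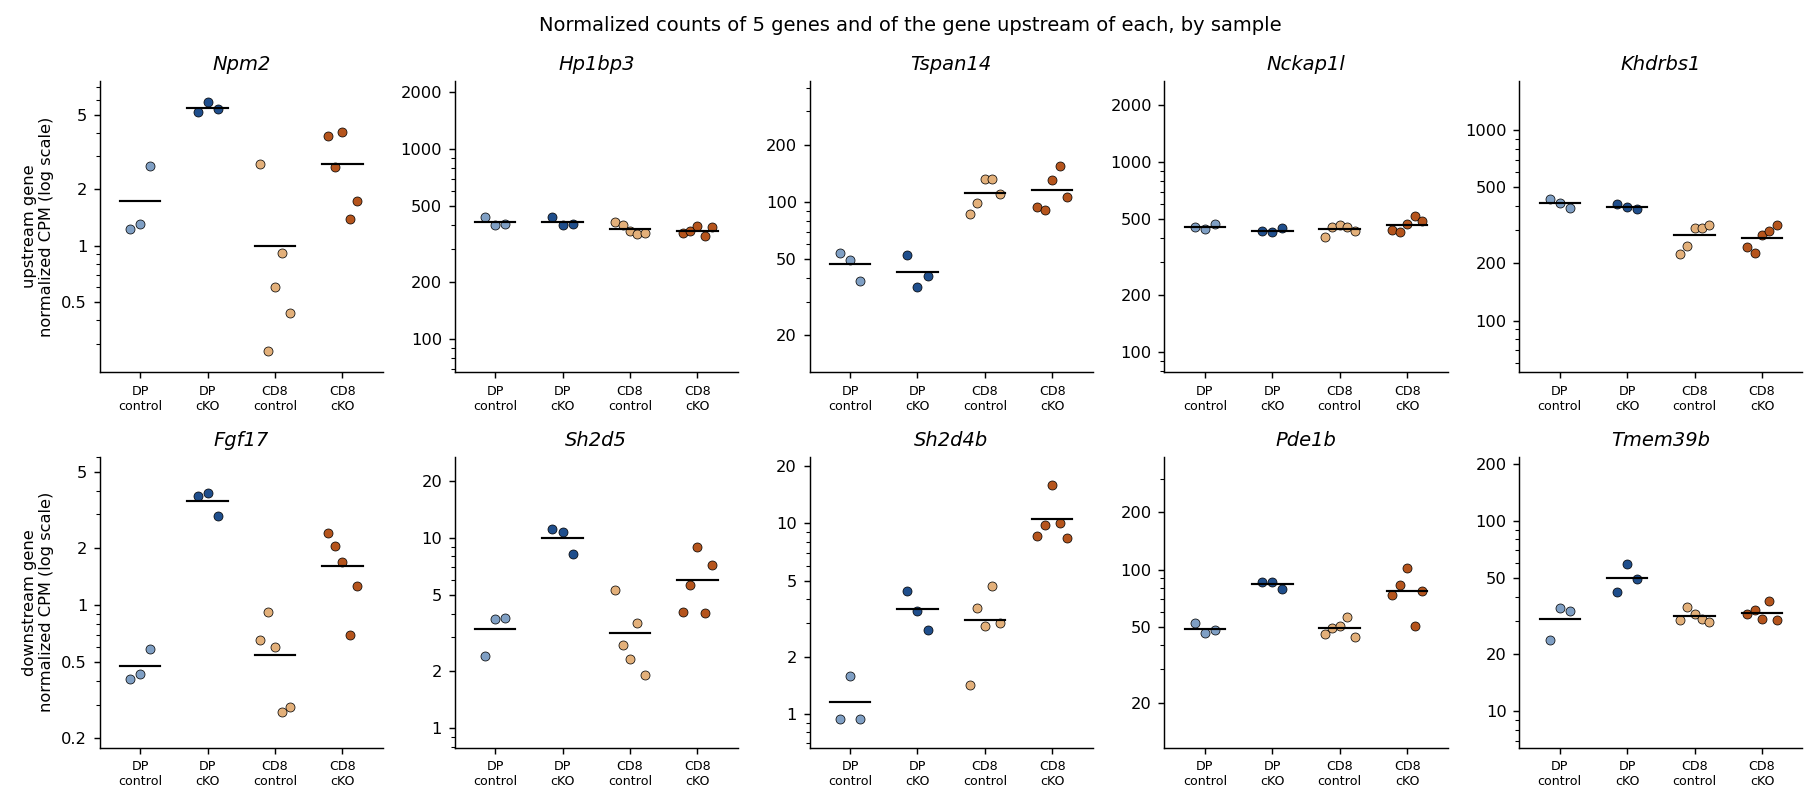
Normalized CPM of each gene in every sample, on a log axis that spans at least the same fold range in each panel. Points are samples, bars are group means, the upper panels show the upstream genes and the lower panels the downstream genes. In DP cells the lower panels and *Npm2* show every cKO sample above every control, as had 7.87% of all genes tested.

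**Figure D3:**
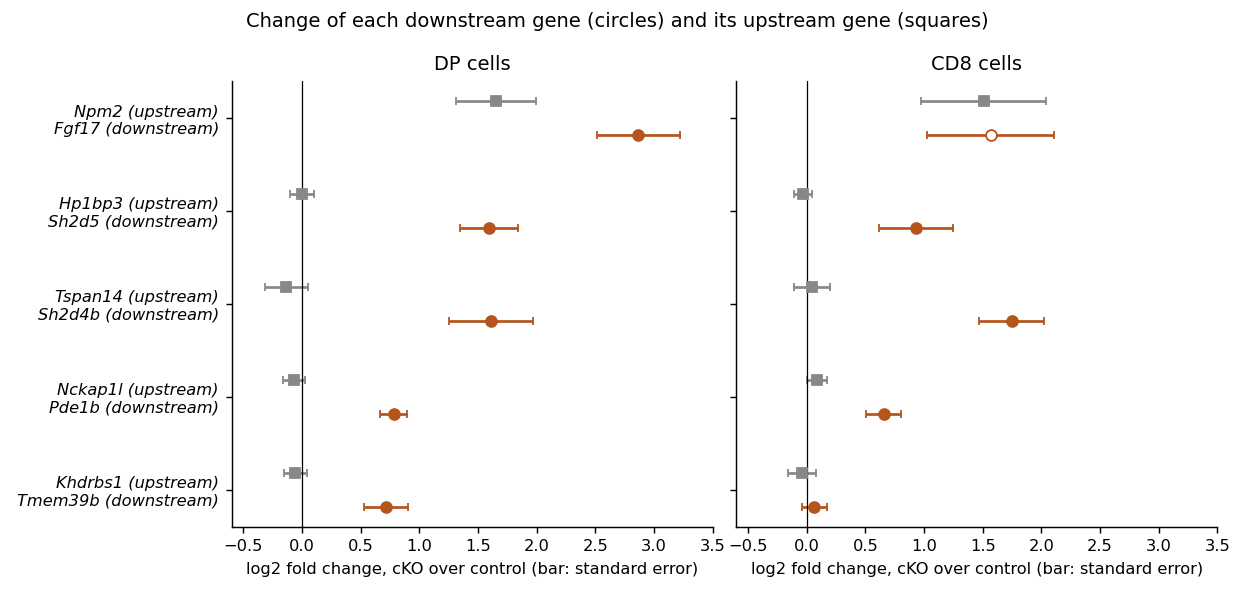
The log2 fold change of cKO over control in each cell type on the x axis, with its standard error as a bar. Circles are downstream genes and squares upstream genes, and the open circle is *Fgf17* in CD8 cells from the fit without a filter on low counts. Squares other than that of *Npm2* lie between -0.13 and 0.09.

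Of the 10 genes, 6 had every DP cKO sample above every DP control, as had 7.87% of the 11748 genes tested. In CD8 cells 1 of the 9 genes tested did, as had 0.855% of all genes. Leaving out the library labelled cKO replicate 4, a count added after the data were seen, *Sh2d4b* and *Pde1b* did, as had 1.61% of all genes. *Fgf17* did too, outside the genes tested. In DP cells edgeR called *Fgf17* and *Pde1b* higher in cKO, beside 0.0894% of all genes, and DESeq2 called the 5 downstream genes and *Npm2*, beside 0.784%. In CD8 cells edgeR called *Sh2d4b*, beside 0.0903% of all genes, and DESeq2 called *Sh2d4b* and *Pde1b*, beside 0.292%. Since changes in these samples chose the genes, nothing is read from these counts. *Pde1b* was not called by edgeR in DP cells with RLE scaling or with all 4 groups in 1 fit, where *Fgf17* was, and with no filter edgeR called *Npm2* and *Sh2d5* beside these 2 genes. With the replicate number as a block edgeR called *Npm2*, *Sh2d5* and *Tmem39b* beside *Fgf17* and *Pde1b* in DP cells. None of the 10 genes was called by edgeR when any 1 of the 6 DP samples was left out, where 757 to 1202 genes had an unadjusted p under 0.05. *Pde1b* was called by edgeR in CD8 cells in 1 of 10 such fits, that without the library labelled cKO replicate 4. *Sh2d4b* was called there in 5 of 10, and not without control replicate 2, 3 or 5 or cKO replicate 2 or 3, where its log2 fold change was 1.80, 1.72, 1.73, 1.77 and 1.56.

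The difference between the changes in CD8 and in DP cells was taken from 1 edgeR fit of all 4 groups, again as a description. For *Tmem39b* the log2 fold change in CD8 cells was lower by 0.65 (SE 0.20), a difference of -0.65, and it was -0.70 (SE 0.20) without CD8 cKO replicate 4. For *Fgf17* the difference was -1.27 (SE 0.63), and -1.09 (SE 0.58) without that library. For *Sh2d4b* and *Pde1b* the differences were 0.14 (SE 0.48) and -0.13 (SE 0.22), each smaller than its standard error, which does not show that the changes were equal. *Sh2d5* was at -0.66 (SE 0.45), and at -0.41 (SE 0.41) without CD8 control replicate 1. *Npm2* was at -0.14 (SE 0.76) and turned to 0.64 (SE 0.59) without CD8 control replicate 1 and to 0.025 (SE 0.63) without cKO replicate 4. The fits without these libraries were added after the data were seen. *Hp1bp3*, *Tspan14*, *Nckap1l* and *Khdrbs1* lay between -0.04 and 0.17. Here too a difference in how the 2 sets were made cannot be told apart from cell type.

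The contrast of control CD8 with control DP cells did not choose the genes and was tested. The control values are, however, part of the changes by which the downstream genes were chosen, so the test is not independent of the choice. *Tspan14* was higher in CD8 controls, with all 5 samples above all 3 DP controls, at a log2 fold change of 1.35 (SE 0.17, edgeR adjusted p = 3.1e-05). *Sh2d4b* was also higher, in 4 of 5 CD8 controls than in every DP control, at 1.53 (SE 0.43, edgeR adjusted p = 0.00905). It averaged 0.521 TPM in DP controls and 1.6 TPM in CD8 controls. The limit of 1 TPM was thus reached only through the CD8 controls. With the replicate number as a block *Sh2d4b* was not called, at 1.25 (edgeR adjusted p = 0.0890). Without the block both genes of this pair were called, 2 of the 9 tested, and with the block *Tspan14* alone. Beside the 22.8% of all genes named above, nothing is read from this count. *Khdrbs1* was lower in all 5 CD8 controls than in every DP control, at -0.46 (SE 0.13, edgeR adjusted p = 0.00783), a fold change under 1.5. *Npm2* was not called, at -0.74 (SE 0.64, edgeR adjusted p = 0.342) and lower in 4 of 5 CD8 controls. Without CD8 control replicate 1, it was called at -1.52 (SE 0.49, edgeR adjusted p = 0.0210) in all 4 that remained, against an adjusted p of 0.0210 to 0.779 over all alternatives. *Sh2d5*, *Hp1bp3*, *Pde1b*, *Nckap1l* and *Tmem39b* lay between -0.01 and 0.14 and were not called, and *Fgf17* did not pass the filter.

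Per length, in TPM, the upstream gene was the more abundant of each pair in DP controls. *Nckap1l* was at 278 ± 14.3 TPM (SD, n = 3) in DP controls and *Pde1b* at 37.4 ± 4.18 TPM (SD, n = 3). *Khdrbs1* was at 247 ± 23.5 TPM and *Tmem39b* at 45.8 ± 7.31 TPM (SD, n = 3 each). Both downstream genes stood well above *Sh2d5*, at 3.0 ± 0.592 TPM, *Fgf17*, at 0.808 ± 0.145 TPM, and *Sh2d4b*, at 0.521 ± 0.152 TPM (SD, n = 3 each). *Hp1bp3* was at 234 ± 24.3, *Tspan14* at 51.8 ± 10.6 and *Npm2* at 4.93 ± 2.17 TPM (SD, n = 3 each).

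The order of the 4 groups differed between the downstream genes. *Fgf17* was highest in DP cKO, at 5.86 ± 1.08 TPM (SD, n = 3), followed without overlap by CD8 cKO, at 3.16 ± 1.27 TPM (SD, n = 5), which overlapped CD8 controls. *Tmem39b* also was highest in DP cKO, at 73.7 ± 12.4 TPM (SD, n = 3), and the other 3 groups overlapped one another in turn. *Sh2d4b* was highest in CD8 cKO, at 5.53 ± 1.61 TPM (SD, n = 5), while CD8 controls, at 1.6 ± 0.599 TPM, and DP cKO samples, at 1.58 ± 0.445 TPM, overlapped. *Pde1b* was at 68.8 ± 18 TPM (SD, n = 5) in CD8 cKO and 62.6 ± 5.74 TPM (SD, n = 3) in DP cKO samples, which overlapped. For *Sh2d5* every group overlapped the next, from 8.96 ± 1.79 TPM (SD, n = 3) in DP cKO downwards.

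As a share of its upstream gene's TPM, a measure added after the data were seen, *Pde1b* was at 14.5, 13.0 and 12.8% in DP controls and 25.2, 25.3 and 22.3% in DP cKO samples. In CD8 cells it was at 14.3, 13.7, 13.6, 15.7 and 12.9% in controls and 21.2, 24.5, 27.4, 12.3 and 19.8% in cKO samples. Control levels were thus alike in both cell types, and the 12.3% of the library labelled cKO replicate 4 was below all of them. *Sh2d4b* was at 1.03 ± 0.299% of *Tspan14* in DP controls and 3.45 ± 0.635% in DP cKO samples (SD, n = 3 each). In CD8 cells *Sh2d4b* was at 1.14 ± 0.356% of *Tspan14* in controls and 3.87 ± 0.940% in cKO samples (SD, n = 5 each). The level of both genes was higher in CD8 than in DP controls while this share was alike.

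*Sh2d5* was at 1.31 ± 0.366% of *Hp1bp3* in DP controls and 3.91 ± 0.550% in DP cKO samples (SD, n = 3 each), and at 1.33 ± 0.511% and 2.57 ± 0.790% in CD8 cells (SD, n = 5 each). *Tmem39b* was at 18.8 ± 4.46% of *Khdrbs1* in DP controls and 32.0 ± 5.95% in DP cKO samples (SD, n = 3 each), and at 29.0 ± 5.62% and 31.0 ± 5.38% in CD8 cells (SD, n = 5 each). For *Tmem39b* the CD8 controls, at 23.3 to 36.2%, overlapped the DP cKO samples. *Npm2* was at 8.54 ± 4.01% of *Xpo7* in DP controls and 25.4 ± 2.02% in DP cKO samples (SD, n = 3 each), and at 4.36 ± 4.24% and 11.9 ± 5.69% in CD8 cells (SD, n = 5 each). CD8 control replicate 1 was at 11.7%, against 1.29 to 4.31% in the other CD8 controls. *Fgf17* was at 17.5 ± 3.79% of *Npm2* in DP controls and 38.3 ± 5.43% in DP cKO samples (SD, n = 3 each), but in CD8 controls this share ran from 14.2 to 197%, with 3 fragments of each gene in the smallest counts.

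**Figure D4:**
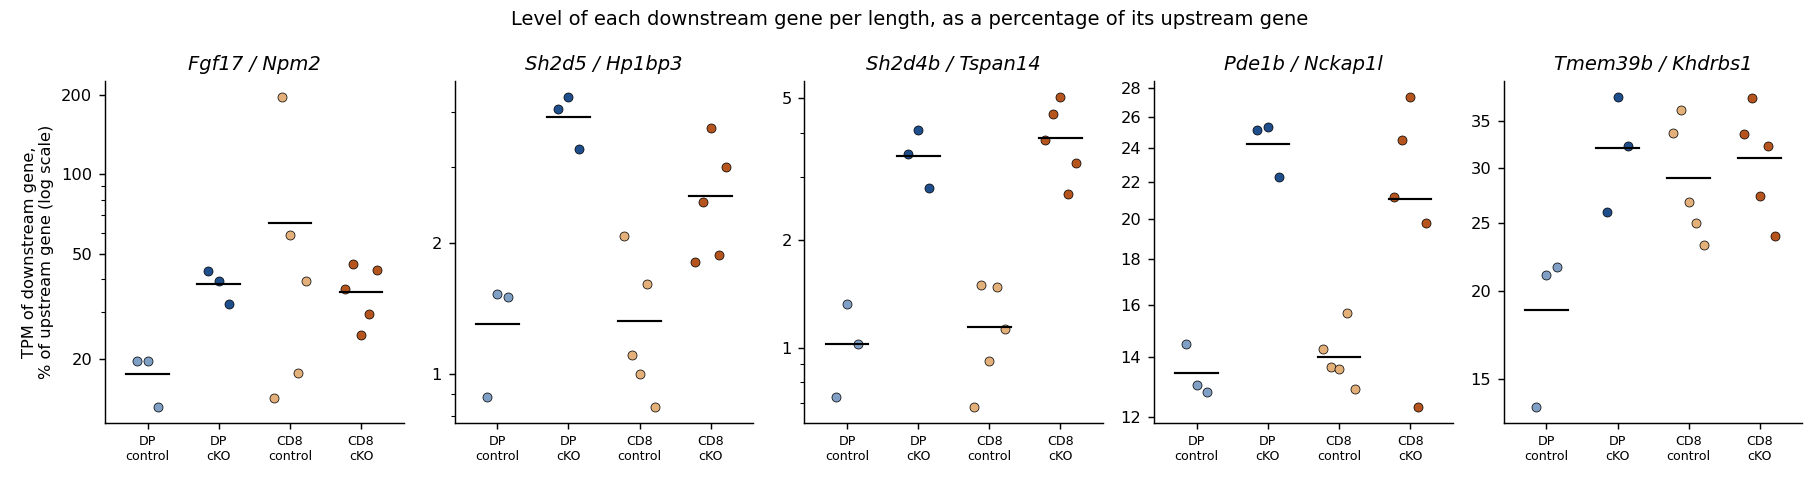
TPM of each downstream gene as a percentage of the TPM of its upstream gene in every sample, on a log axis whose range differs between panels. Points are samples and bars are group means. In DP cells the cKO samples lie above the controls in all 5 panels, and in CD8 cells without overlap in the panel of *Sh2d4b*.

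The distance to the next gene upstream on the same strand was looked at over all genes tested, with no test. In DP cells edgeR called 1 of 812 genes higher at a gap under 2 kb, 6 of 2075 at 2 to 10 kb, 1 of 3712 at 10 to 50 kb and 2 of 5116 beyond. The share of genes at least 1.5-fold higher in cKO, added after the data were seen, was 11.3, 7.61, 4.26 and 3.44% in these classes. The share at least 1.5-fold lower was 3.20, 3.23, 4.09 and 5.08%, which ran the other way. Median log2 fold changes were 0.06, 0.05, 0.01 and -0.04, and the median over all genes was 0.00.

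In CD8 cells edgeR called 1 of 760, 5 of 1963, 1 of 3544 and 3 of 4926 genes higher in the same classes. There the share at least 1.5-fold higher was 5.13, 4.18, 1.38 and 1.79%, and the share at least 1.5-fold lower 2.89, 0.917, 1.52 and 1.42%. Median log2 fold changes were -0.035, -0.017, 0.00 and 0.00 there. Where the upstream gene had a mean of at least 10 TPM in controls, as have *Hp1bp3*, *Tspan14*, *Nckap1l* and *Khdrbs1*, the share at least 1.5-fold higher was 13.6, 10.4, 5.24 and 3.71% in DP and 6.65, 5.53, 1.61 and 1.9% in CD8 cells, a limit on controls alone that was added after the data were seen. With the mean over control and cKO samples, which *Npm2* also reached in DP cells through its cKO samples, the shares were 14, 10.4, 5.24 and 3.83% in DP and 6.78, 5.56, 1.61 and 1.94% in CD8 cells. By the deposited annotation the 5 downstream genes all fall in the class of 2 to 10 kb and are counted in it where tested. By their GENCODE gaps of 13179 and 16981 bases *Sh2d4b* and *Tmem39b* would fall in the class of 10 to 50 kb.

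**Figure D5:**
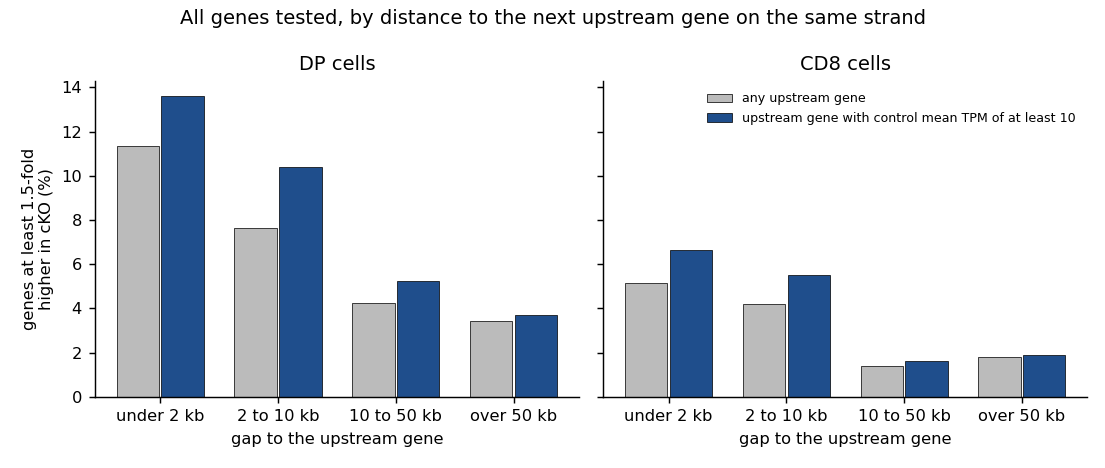
Share of genes tested that were at least 1.5-fold higher in cKO than in control samples, on the y axis in percent, by the gap to the next upstream gene on the same strand. Grey bars are all genes and blue bars those whose upstream gene has a mean of at least 10 TPM in controls. In DP cells the share falls from 11.3% under 2 kb to 3.44% beyond 50 kb.

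The genes most like each downstream gene were taken by Pearson r of log2 CPM over the 16 samples after subtracting each cell type's mean, among 10920 genes tested in both cell types. For *Fgf17* they were *Eno3* (r = 0.925), *Prob1* (0.918) and *Notch3* (0.898), and r with *Npm2* was 0.793. For *Pde1b* they were 1600020E01Rik (r = 0.934), *Rhbdl1* (0.922) and 2810021J22Rik (0.908), and for *Sh2d5* they were *Ttc41* (0.933), *Espnl* (0.907) and *Usp3* (0.891). With their own upstream genes *Pde1b* and *Sh2d5* had r of -0.03 and 0.147. For *Sh2d4b* they were *Fbxl22* (r = 0.905), *Tspoap1* (0.894) and *Mcm9* (0.891), and for *Tmem39b* *Rps6ka4* (0.863), *Oxa1l* (0.839) and *Zc3h4* (0.820). With *Tspan14* and *Khdrbs1* these genes had r of 0.190 and -0.23. The 16 samples share genotype groups and library depth between all genes, and these values are a description.

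Other genes of the same families were followed by fixed lists. Of 22 FGF ligands in the tables, *Fgf17* and *Fgf13* passed the filter in DP cells, and *Fgf13* was at a log2 fold change of -0.02. Of 7 receptors and co-receptors 3 passed there and none was called, with a median of 0.06, and 2 passed in CD8 cells with a median of -0.31. *Etv5* and *Spry4*, which FGF signals are known to induce, were at -0.70 and -0.74 in DP cells and at 0.31 and 0.72 in CD8 cells, none of them called. *Spry1*, *Spry2* and *Dusp6* were at 0.18, -0.13 and -0.44 in DP cells and at 0.16, 0.56 and -0.075 in CD8 cells, also not called. The 5 feedback and target genes tested had medians of -0.44 and 0.31, beside 0.00 and -0.01 over all genes.

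Among 15 phosphodiesterases tested in DP cells edgeR called *Pde1b* alone between genotypes, beside 0.0894% of all genes called higher, with a median of -0.02. With all 10 samples edgeR called none of 13 in CD8 cells, with a median of 0.12. DESeq2 called *Pde1b* there, beside 0.292% of all genes called higher. *Pde1b* was chosen by its changes in these samples, so nothing is read from its calls between genotypes. In control CD8 against control DP cells 9 of 15 were called higher, among them *Pde2a* at 3.31, *Pde7a* at 2.57 and *Pde3b* at 2.38, and 1 lower, *Pde5a* at -1.78, beside 22.8% of all genes called higher and 23.1% lower. *Pde1b* itself was at 0.12 there. The median of the 15 was 1.23, beside -0.01 over all genes.

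Of 5 SH2D adaptors tested in DP cells edgeR called none in the fit with the filter and no block, with a median of 0.05. There edgeR with no filter or with the replicate number as a block called *Sh2d5*. DESeq2 called *Sh2d5* and *Sh2d4b* there, beside 0.784% of all genes called higher. In CD8 cells edgeR and DESeq2 called *Sh2d4b*, beside 0.0903% and 0.292% of all genes called higher, and the median was 0.07. *Sh2d1a*, *Sh2d2a* and *Sh2d3c*, adaptors of lymphocytes, lay between -0.17 and 0.07 in both cell types. Between control cells 3 of 5 were called higher in CD8, *Sh2d3c* at 2.12, *Sh2d4b* at 1.53 and *Sh2d2a* at 0.95, and 1 lower, *Sh2d1a* at -2.81. Over all genes 22.8% were called higher and 23.1% lower. With the replicate number as a block *Sh2d4b* was not called there. *Tmem39a*, the close relative of *Tmem39b*, was at -0.03 in DP and -0.12 in CD8 cells. The TMEM39 and STAR list had medians of -0.03 and -0.04. None of its genes was called by edgeR in the fit with the filter and no block, while DESeq2 called *Tmem39b* in DP cells. *Sh2d5*, *Sh2d4b* and *Tmem39b* were chosen by their changes in these samples, so nothing is read from their calls between genotypes. *Npm1* and *Npm3*, the relatives of *Npm2*, were at 0.03 and -0.11 in DP and -0.14 and -0.38 in CD8 cells.

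No gene of the families of the other upstream genes was called by edgeR between genotypes. The WAVE complex, with 10 genes tested in DP and 9 in CD8 cells, had medians of -0.07 and 0.01. In DP cells *Wasf1* at -1.17, *Cyfip1* at -1.10, *Abi2* at -0.41 and *Nckap1* at -0.36 had every cKO sample below every control, 4 of the 10 tested, as had 7.27% of all genes. *Adam10*, *Tspan14* and *Tspan5*, the 3 tested genes of the ADAM10 list, had medians of -0.13 and 0.04. Between control cells *Tspan5* was called higher in CD8, like *Tspan14*, at 0.95, beside 22.8% of all genes. The 4 genes of the HP1 list had medians of 0.06 and 0.07.

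Markers of other cells were looked at by their summed TPM in each sample. The 2 markers of CD4 single positive cells summed to 23.6, 17.7 and 13.5 TPM in DP controls and to 9.61, 7.36 and 7.13 TPM in DP cKO samples. Every DP cKO sample was lower, neither gene was at 0, *Cd40lg* was the more abundant in controls and *Zbtb7b* in cKO samples, and neither was called. The 5 markers of thymic epithelium summed to 7.99, 8.5 and 12.0 TPM in DP controls and 6.85, 4.98 and 6.39 TPM in DP cKO samples, again without overlap. *Epcam* was the most abundant of them, and *Foxn1* was at 0 in all 6. Of the markers of CD8 single positive cells, *S1pr1* was at -1.36 and *Ccr7* at -1.07 in DP cells, with all cKO samples below all controls and none of the 8 called, and the list had medians of -0.36 in DP and -0.14 in CD8 cells. Summed, it ran from 4831 to 5913 TPM in DP controls and from 4003 to 4901 TPM in DP cKO samples, and *Cd8b1* was the most abundant.

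The 7 DP markers summed to 11273 to 14124 TPM in DP controls and 10345 to 12408 TPM in DP cKO samples, which overlapped, and none was called between genotypes. Markers of B cells ran from 8.52 to 18.4 and from 5.50 to 9.55 TPM there, those of mononuclear phagocytes from 40.6 to 84.5 and from 35.9 to 45.3 TPM. Of the phagocyte markers, *Lyz2* at -1.65 and *Csf1r* at -1.25 had every DP cKO sample below every control, and *Cd68* at 0.63 had every one above. None of them was called by edgeR, none was at 0 in DP cells, and *Lyz2* was the most abundant in controls and *Cd68* in cKO samples. Erythroid markers were at or near 0 in every sample, with *Hbb-bs* and *Hba-a1* at 0 in all 16. The part of these differences in the values of the 10 genes in DP cells was not tested.

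In CD8 cells *Sox13*, the only 1 of the 3 listed markers of γδ T cells that the tables hold, was at 6.30, 4.18, 3.46, 1.79 and 2.13 TPM in controls and 13.4, 7.06, 7.20, 7.59 and 8.69 TPM in cKO samples. Every cKO sample was above every control, at a log2 fold change of 1.29 (SE 0.32), which was not called. The cells were sorted as TCRβ+CD8+, and the content of γδ cells was not tested. Markers of B cells summed to 38.6, 15.9, 7.53, 6.66 and 10.3 TPM in CD8 controls, highest in control replicate 1, and to 24.3, 21.5, 6.44, 9.94 and 15.5 TPM in cKO samples. *Cd79a* was the most abundant and no B cell marker was at 0. Markers of CD4 single positive cells ran from 6.61 to 26.7 TPM in CD8 controls and 3.79 to 29.1 TPM in cKO samples, those of mononuclear phagocytes from 29.7 to 46.3 and 30.6 to 79.8 TPM, and those of thymic epithelium from 2.67 to 6.39 and 1.75 to 5.58 TPM, all with overlap. DP markers ran from 3322 to 3599 TPM in controls and were at 3052, 3118, 3096, 3684 and 3160 TPM in cKO samples, so that the library labelled cKO replicate 4 was above every control and the other 4 were below every control. *Cd8b1* was the most abundant of them, *Cd8a* and *Cd8b1* were each lower in these 4 cKO samples than in every control, and no DP marker was called or at 0. The part of these markers in the values of the 10 genes in CD8 cells was not tested.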

How the data were processed

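The authors filtered reads with fastp 0.13.1, aligned them with HISAT2 2.1.0 to mm10 and counted them with featureCounts 1.6.1 in strand-specific mode; the fragment counts per gene they deposited are raw. For CD8 cells the build is given only by the processing notes, and positions and exonic lengths came from the DP table by symbol. CPM, TPM and fits were computed here with edgeR 4.0.16 (TMM, filterByExpr, quasi-likelihood F test, Benjamini-Hochberg over all genes) in R 4.3.3, with DESeq2 1.42.0 as an alternative, and were tested on simulated data. Each fit held only the groups compared. Called genes had an adjusted p below 0.05, changed at least 1.5-fold and averaged 1 TPM or more. Alternatives were RLE scaling, no filter, a replicate block, all 4 groups in 1 fit, and each sample left out. Named genes are the 10 genes, *Tox4*, the nearest gene on each side of a pair, family and marker lists and the 3 most alike genes; examples within lists were picked after their values were seen. Genes and lists were chosen with earlier results of these data known. Nothing states that each sample is 1 mouse, so p-values measure the spread between samples as labelled.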

Additional observations from a re-analysis of the deposited data

Results flagged for a closer look

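In CD8 cells, samples far from the others of their group of 5 were looked for in 57 groups of values, of which chance alone would pick about 1 in 20. There were 11. In CD8 control replicate 1, *Npm2* was at 2.72 CPM, *Dmtn* at 4.24 CPM, *Eif4g3* at 711 CPM and *Gtsf2*, with 2 fragments, at 0.218 CPM, B cell markers summed to 38.6 TPM, and 17741 genes had a fragment, each far above the other controls. In CD8 cKO replicate 3, *Sh2d4b* was at 15.9 CPM and *Kif17* at 1.12 CPM, both far above the other cKO samples. In the library labelled CD8 cKO replicate 4, the DP markers summed to 3684 TPM, the highest of the group. In CD8 cKO replicate 2, erythroid markers summed to 0.153 TPM, against 0 in the other 4. In CD8 cKO replicate 1, the γδ T cell marker *Sox13* was at 13.4 TPM, the highest of its group. DP groups of 3 samples were not looked at in this way.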

How the results depend on the processing

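For single genes, 109 log2 fold changes in DP, 153 in CD8 and 19 differences between cell types moved by less than the spread between samples over the alternatives, whether or not a call was lost, and 117 values between control cells stayed on their side of the threshold. The others were values of *Npm2* and 1 of *Sh2d4b*. Leaving out 1 sample, *Npm2* ran from 1.46 to 2.09 in DP (highest without control replicate 3), from 1.27 to 2.29 in CD8 and from -1.52 to -0.29 between control cells (the extremes 2.29 and -1.52 without CD8 control replicate 1), and its difference between cell types, in fits added after the data were seen, from 0.025 to 0.64. With the replicate number as a block, *Sh2d4b* between control cells was at 1.25 (edgeR adjusted p = 0.0890, against 0.00134 to 0.0890 over all alternatives); DP and CD8 samples share only a number. Between genotypes the block left every edgeR call of the 10 genes and added *Npm2*, *Sh2d5* and *Tmem39b* in DP cells.

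The 10 genes called higher and 7 called lower in DP cells became 45 and 29 with no filter, 91 and 68 in DESeq2, 74 and 57 with the block and 17 and 25 with all 4 groups in 1 fit. Leaving out 1 sample gave 0 to 6 and 0 to 2. In edgeR 0 were called in either direction without control replicate 2 and 0 lower without cKO replicate 2 or 3, where 990, 1145 and 757 genes had an unadjusted p under 0.05. The 10 and 1 in CD8 cells became 35 and 11 in DESeq2, 25 and 6 with the block, 12 and 2 with all 4 groups in 1 fit, 3 to 18 and 1 to 2 with 1 sample left out, and 4 higher without both samples numbered 1. With 1 sample left out, 3 genes were called higher without CD8 control replicate 3 and 18 without CD8 cKO replicate 4. Same-numbered control and cKO samples correlated at r of 0.682, 0.094 and 0.323 in DP and of 0.377, 0.324, 0.338, 0.332 and 0.095 in CD8 cells, and not every sample was most like its own number. The causes of these shifts were not tested. *Fgf17* had 3 to 10 fragments in a control library.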
